A study of Mus musculus with 6 samples.

Results

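The 10 genes described here are 9 genes of the cartilage matrix, Acan, Hapln1, Matn1, Matn2, Matn3, Matn4, Ucma, Snorc and Chad, and Sox9, the transcription factor that governs the cartilage programme. They were fixed by symbol, with earlier results of these data known, so counts of them beside all genes are a description only. Each was read from its only probe set annotated to a single gene symbol, so that all 10 were found among the 22180 genes measured. The arrays carried RNA of whole MC3T3-E1 cells, an immortal mouse line of pre-osteoblasts from the skull vault, which forms mineralising osteoblasts rather than cartilage in culture. The 3 NU7441 samples were kept for 14 days with 1 µM NU7441, which inhibits DNA-PK (the kinase of DNA double-strand break repair), and the 3 DMSO samples with its solvent DMSO. Both groups were differentiated from confluency with ascorbic acid at 50 µg/ml and β-glycerophosphate at 10 mM, and both are of the same line. The model is 1 cell line under 1 inhibitor dose and 1 harvest day, and the labels do not say whether replicates were separate cultures, so that the p-values reflect the spread among these samples alone, and that spread may be technical.

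Cartilage matrix is built from collagen II fibrils that hold a gel of aggrecan, a core protein with many chondroitin sulfate chains, bound along hyaluronan and fixed there by link protein. Matrilins are oligomeric adaptor proteins that tie collagens and proteoglycans together. Sox9, with Sox5 and Sox6, switches on most genes of this matrix in chondrocytes, largely through enhancers. The skull vault ossifies mainly without a cartilage stage, while precursors that can become osteoblasts or chondrocytes express Sox9 early.

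The comparison asks how blocking the kinase bears on genes of the chondrocyte programme in differentiating osteoblasts, in a series about the phosphorylation of the coregulator alphaNAC by this kinase. Matn4, Ucma, Snorc and Matn1 were the members with the highest NU7441 values relative to DMSO, with log2 differences, NU7441 minus DMSO, from 0.23 to 0.59, or 1.17-fold to 1.50-fold. Sox9, Acan and Matn3 lay close to 0, at -0.02, -0.04 and -0.04. In limma, 0 of the 10 genes passed at an adjusted p under 0.05, as did 0% of all genes (0 of 22180). At an unadjusted p under 0.05 there were 4 of 10 members, all 4 higher with NU7441, where 6.79% of all genes met that p, 3.49% as higher and 3.3% as lower. With each array centred on its median these shares were 2.52% and 4.09%, and 4 members, all higher, again had such a p. The groups did not overlap in 3 of 10 members, Matn1, Ucma and Snorc, all higher with NU7441, where this held for 6.13% of all genes as higher and 6.64% as lower. Of the members 6 had a difference above 0, as did 51.3% of all genes, and the members' median difference was 0.12 against 0.00 over all genes. That share depended on level. Among the brighter 50 percent of genes 41.9% had a difference above 0, as did 2 of the 4 members there. It was thus above 51.3% among the dimmer genes, where the other members lay. The 95% interval of the difference lay within 2-fold for 9 of 10 members, all but Matn4, and for 99.2% of all genes.

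**Figure D1:**
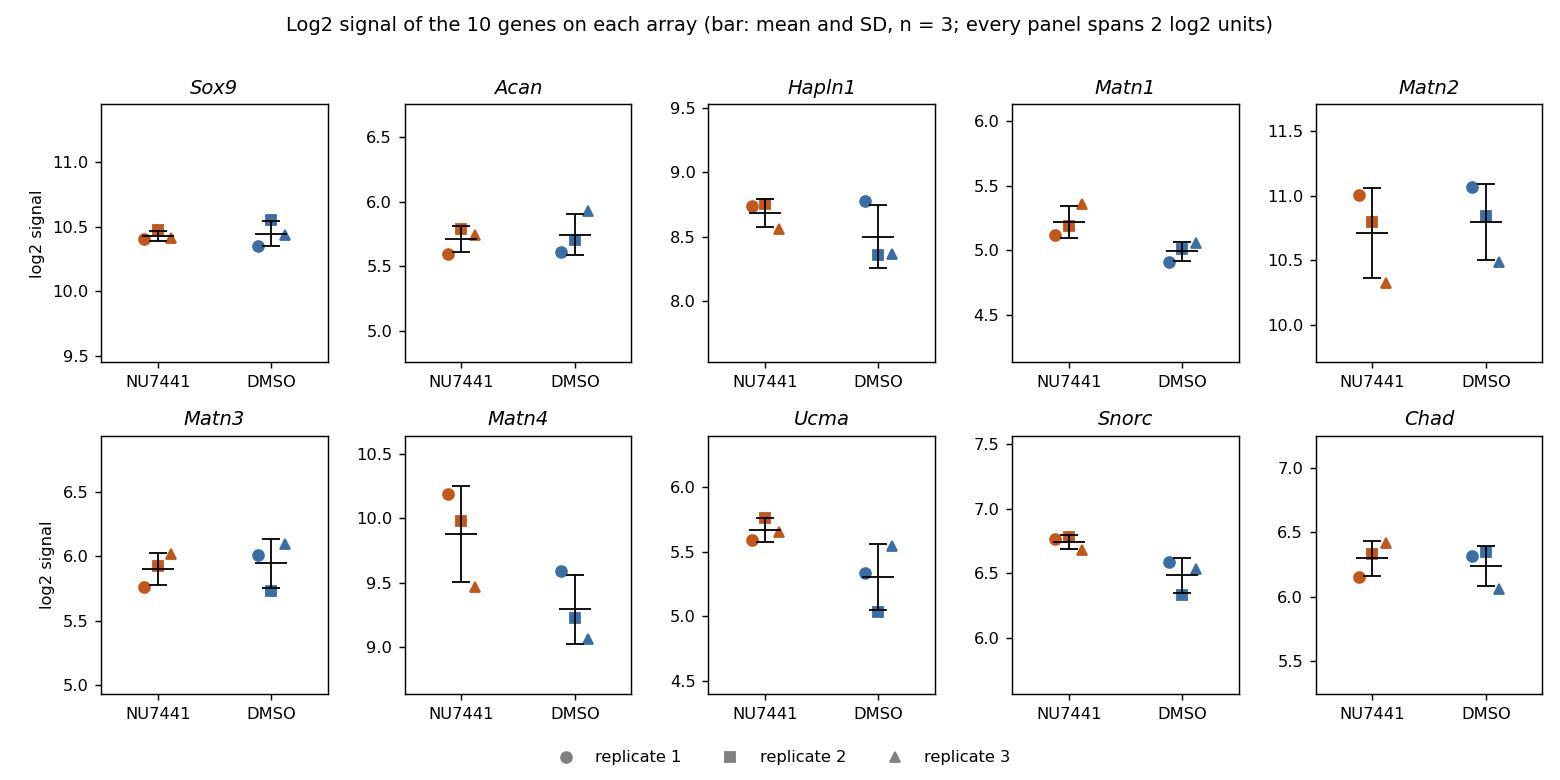
Log2 signal of each gene on each array, with NU7441 on the left and DMSO on the right of each panel; point shapes mark replicate numbers and bars give the mean and SD (n = 3). Every panel spans the same height, so that Sox9 is seen to vary little within its groups, while Matn2 and Matn4 spread widely within both groups, with replicate 3 lowest in each.

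Where a gene lies on the array sets how far its difference can be read. The lower quartile of all probe sets was between 5.11 and 5.16 on the 6 arrays, and the upper quartile between 8.26 and 8.32. Matn1 lay at or below the lower quartile on 4 arrays and at most 0.20 above it on the others. Ucma lay below it on 1 array, DMSO 2, and at most 0.60 above it elsewhere. Acan was 0.45 to 0.79 and Matn3 0.62 to 0.96 above it, and both were below the median of every array. No background signal was analysed here, and the sizes of the differences of these 4 genes are therefore uncertain. Sox9, Matn2, Matn4 and Hapln1 were above the upper quartile on all 6 arrays. Signals of different probe sets are not on a common scale, so these positions do not rank the genes by transcript amount. In RNA of a whole culture, fewer expressing cells and less RNA per cell cannot be told apart.

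Sox9 encodes the HMG-box factor that commits mesenchymal precursors to cartilage. Its log2 signal was 10.40, 10.47 and 10.41 with NU7441, against 10.35, 10.55 and 10.43 with DMSO. The groups overlapped, and the 3 NU7441 values lay inside the range of the DMSO values. The means were 10.43 ± 0.04 with NU7441 and 10.45 ± 0.10 with DMSO (SD, n = 3 each), a difference of -0.02 (SE 0.07, adjusted p = 0.972 in limma). The 95% interval ran from -0.19 to 0.16, or from 0.877-fold to 1.11-fold, so larger shifts of the Sox9 signal in either direction lay outside it.

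The list of other transcription factors of chondrocytes, which also holds the ubiquitin ligase gene Wwp2, showed the same absence of calls. Of its genes 0 of 12 passed, 7 were higher and 5 lower with NU7441, Wwp2 among the lower at -0.01, and the median difference was 0.07. Without NU7441 1 that median was 0.0018. Sox5 and Sox6 encode the partners of Sox9 at cartilage enhancers. Sox5 differed by -0.01 (SE 0.15) and Sox6 by 0.21 (SE 0.20). Within same-numbered samples the difference was 0.04, 0.16 and -0.22 for Sox5, and 0.19, 0.17 and 0.26 for Sox6. With the replicate number as a block the SE of Sox6 was 0.06, and it was not called (adjusted p = 0.487 in limma). The smallest p belonged to Barx1, a homeobox gene of joint and facial mesenchyme, at 0.27 (SE 0.07, adjusted p = 0.679). Pax1, which acts in sclerotome, differed by 0.18 (SE 0.08), Foxc1, a forkhead gene of the developing skull, by -0.18 (SE 0.08) and Trps1, a GATA-type repressor of the growth plate, by 0.17 (SE 0.08). In Barx1 and Pax1 all 3 NU7441 values were above all DMSO values, and in Foxc1 and Zfp219 they were all below. Over all genes this held for 6.13% as higher and 6.64% as lower. The groups were barely apart in 2 of these genes. The closest values were 6.30 with NU7441 and 6.28 with DMSO in Pax1, and 8.380 and 8.385 in Zfp219.

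Acan encodes aggrecan, the large proteoglycan that gives cartilage its swelling pressure. It was at 5.60, 5.79 and 5.75 with NU7441, against 5.61, 5.70 and 5.93 with DMSO. The groups overlapped over most of their range. The means were 5.71 ± 0.10 with NU7441 and 5.75 ± 0.16 with DMSO, a difference of -0.04 (SE 0.10, 95% interval -0.27 to 0.20, adjusted p = 0.959).

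Hapln1 encodes link protein, which fixes aggrecan to hyaluronan. It was at 8.74, 8.75 and 8.56 with NU7441, against 8.78, 8.36 and 8.36 with DMSO. DMSO 1 was the highest of the 6 values, and the other 2 DMSO values were the lowest. The means were 8.69 ± 0.11 with NU7441 and 8.50 ± 0.24 with DMSO, a difference of 0.19 (SE 0.13, 95% interval -0.12 to 0.49, adjusted p = 0.826).

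The genes that supply the rest of the aggregate were likewise not called. Of the genes of hyaluronan synthesis, binding and breakdown, the lecticans and the other link proteins, 0 of 14 measured passed, with 10 higher and 4 lower and a median difference of 0.07. Without NU7441 2 these genes split into 7 higher and 7 lower with a median of 0.023, and without DMSO 2 the median was 0.027. The smallest p values belonged to Cemip2, a cell-surface protein of hyaluronan breakdown, at 0.18 (SE 0.09), Vcan, the lectican versican, at -0.16 (SE 0.09), the link protein gene Hapln2 at 0.13 (SE 0.09) and the hyaluronan-degrading factor Cemip at 0.28 (SE 0.22). Of the genes that make, sulfate and supply chondroitin sulfate chains, 0 of 20 measured passed, with 14 higher and 6 lower, a median of 0.04 and a range of -0.18 to 0.17. The median was 0.013 without DMSO 2, with 11 higher and 9 lower, and 0.024 without NU7441 3. The range was set by Csgalnact1, which starts the chains, at its lower end and by Xylt1, which attaches the linker sugar to the core protein, at its upper end. Xylt1 had the smallest p of these genes at 0.17 (SE 0.08), then Slc35d1, a nucleotide sugar carrier, at 0.15 (SE 0.08), B3galt6, which builds the linker, at -0.14 (SE 0.10) and Csgalnact1 at -0.18 (SE 0.14).

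The 4 matrilin genes differed among themselves. Matn1 and Matn3 encode the matrilins found mainly in cartilage, and Matn2 and Matn4 those also found in other connective tissues. Matn4 was at 10.19, 9.98 and 9.47 with NU7441, against 9.59, 9.23 and 9.06 with DMSO. NU7441 3 lay below DMSO 1, so the groups overlapped by that single value. The means were 9.88 ± 0.37 with NU7441 and 9.29 ± 0.27 with DMSO, a difference of 0.59 (SE 0.21, 95% interval 0.10 to 1.07, adjusted p = 0.700). Within same-numbered samples the difference was 0.60, 0.75 and 0.41, higher with NU7441 in 3 of 3. With the replicate number as a block, the intensity trend and the robust prior together, a setting chosen after the data were examined, Matn4 passed (SE 0.07, adjusted p = 0.0188 in limma), 1 of the 100 genes (0.451% of all genes) called there and 1 of the 39 (0.176%) called higher. No other alternative called it.

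Matn1 was at 5.12, 5.18 and 5.35 with NU7441, against 4.91, 5.01 and 5.05 with DMSO. All 3 NU7441 values were above all DMSO values, by a gap of 0.07. The means were 5.22 ± 0.12 with NU7441 and 4.99 ± 0.08 with DMSO, a difference of 0.23 (SE 0.08, 95% interval 0.03 to 0.43, adjusted p = 0.711), at a level near the lower quartile as given above.

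Matn2 and Matn3 showed no such separation. Matn2 was at 11.01, 10.80 and 10.32 with NU7441, against 11.07, 10.84 and 10.48 with DMSO. The same-numbered samples stood close to each other, while the samples within a group ranged over 0.68 with NU7441 and 0.58 with DMSO. The difference was -0.09 (SE 0.21, 95% interval -0.57 to 0.40, adjusted p = 0.951), and it was negative in each of the 3 pairs, at -0.06, -0.05 and -0.16. Matn3 was at 5.77, 5.93 and 6.02 with NU7441, against 6.01, 5.73 and 6.10 with DMSO. Here the values interleaved, and the difference was -0.04 (SE 0.11, 95% interval -0.31 to 0.23, adjusted p = 0.957).

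**Figure D2:**
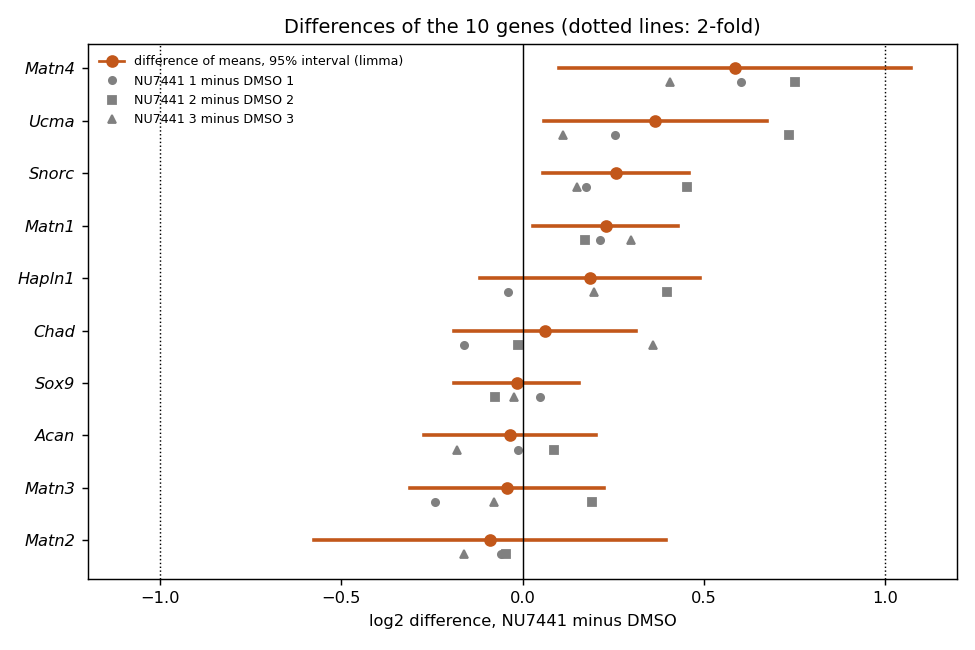
Log2 difference, NU7441 minus DMSO, of each gene with its 95% interval from limma on group alone (orange), and the difference within each same-numbered pair of arrays (grey shapes). Dotted lines mark 2-fold. The interval of Matn4, from 0.10 to 1.07, is the one that reaches 2-fold, and the 3 pairs lie on one side of 0 in Matn4, Ucma, Snorc, Matn1 and Matn2.

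The promoters of the members with unadjusted p under 0.05 are shown where RefSeq promoter sequences were at hand, to let the genes be compared at their starts. A promoter sequence was found for 7 of the 10 members, with 2 starts for Matn4, and Matn2, Snorc and Sox9 had none here. The capitals mark CAAAG or its reverse complement CTTTG, a form of the centre of the sites that SOX proteins bind, in the 250 bases before each start (RefSeq, build GRCm38.p6).
Matn4, upstream start, chr2:164405161-164405410, minus strand: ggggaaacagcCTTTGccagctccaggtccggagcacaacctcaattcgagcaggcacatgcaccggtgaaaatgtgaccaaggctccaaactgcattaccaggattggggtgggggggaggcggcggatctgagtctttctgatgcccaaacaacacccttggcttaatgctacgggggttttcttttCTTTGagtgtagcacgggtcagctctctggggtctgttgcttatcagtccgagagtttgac
Matn4, downstream start, chr2:164404819-164405068, minus strand: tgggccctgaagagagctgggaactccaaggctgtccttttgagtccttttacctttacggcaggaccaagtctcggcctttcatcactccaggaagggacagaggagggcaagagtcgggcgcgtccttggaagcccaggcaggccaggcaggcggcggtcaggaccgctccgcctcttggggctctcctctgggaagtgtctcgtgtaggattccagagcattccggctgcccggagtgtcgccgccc
Matn1, chr4:130944135-130944384, plus strand: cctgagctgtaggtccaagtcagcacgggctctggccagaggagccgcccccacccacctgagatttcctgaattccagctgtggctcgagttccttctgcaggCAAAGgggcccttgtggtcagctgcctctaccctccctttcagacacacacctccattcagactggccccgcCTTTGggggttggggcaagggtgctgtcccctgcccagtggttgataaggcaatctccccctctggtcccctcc
Ucma, chr2:4975872-4976121, plus strand: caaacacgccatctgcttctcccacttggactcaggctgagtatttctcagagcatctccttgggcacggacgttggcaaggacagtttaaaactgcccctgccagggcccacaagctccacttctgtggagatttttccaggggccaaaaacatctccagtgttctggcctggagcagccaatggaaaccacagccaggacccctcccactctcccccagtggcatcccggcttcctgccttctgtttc
The motif occurred 2 times before the upstream Matn4 start and 2 times before Matn1, and not in the other 2 windows shown. It was present in 3 of the 8 windows of members, the third being that of Matn3, and in 48.6% of all 32851 promoter windows of this length. The form CAATG, which lies within ACAATG, was not counted alone, and the Ucma window holds it unmarked. The longer motifs ACAAAG and ACAATG, each searched on both strands and the first holding CAAAG within it, occurred in 0 of the 8 windows, and in 16.5% and 10.7% of all windows. A match describes letters only, and the array reads 1 signal for Matn4, not its starts.

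Ucma, Snorc and Chad encode smaller cartilage products. Ucma, whose product is a secreted, vitamin K-dependent protein of the upper growth plate, was at 5.59, 5.77 and 5.65 with NU7441, against 5.33, 5.03 and 5.54 with DMSO. All NU7441 values were above all DMSO values, but NU7441 1 exceeded DMSO 3 by only 0.05. The means were 5.67 ± 0.09 with NU7441 and 5.30 ± 0.26 with DMSO, a difference of 0.37 (SE 0.13, 95% interval 0.06 to 0.68, adjusted p = 0.707). Within pairs the difference was 0.25, 0.73 and 0.11, so that the low DMSO 2 carried much of it. Without DMSO 2 it was 0.23.

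Snorc encodes a transmembrane chondroitin sulfate proteoglycan of chondrocytes. It was at 6.76, 6.78 and 6.68 with NU7441, against 6.59, 6.33 and 6.53 with DMSO. The NU7441 values lay within 0.10 of each other and all above the DMSO values, by a gap of 0.09. The means were 6.74 ± 0.05 with NU7441 and 6.48 ± 0.13 with DMSO, a difference of 0.26 (SE 0.09, 95% interval 0.06 to 0.46, adjusted p = 0.698), which had the smallest unadjusted p of the 10 genes in limma, 0.0186. Within pairs the difference was 0.17, 0.45 and 0.15, largest in the pair with the low DMSO 2. Without DMSO 2 the difference of the means was 0.18.

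Chad encodes chondroadherin, a leucine-rich repeat protein that binds collagen and integrins. It was at 6.15, 6.33 and 6.42 with NU7441, against 6.31, 6.34 and 6.06 with DMSO. The groups overlapped, with the lowest value in DMSO 3 and the highest in NU7441 3. The difference was 0.06 (SE 0.11, 95% interval -0.19 to 0.31, adjusted p = 0.931).

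Not all members shared a pattern across the arrays. Relative to each gene's mean over the 6 arrays, Matn4 was at 0.60, 0.39 and -0.12 in NU7441 1 to 3, against 0.00, -0.36 and -0.53 in DMSO 1 to 3. Matn2 was at 0.25, 0.04 and -0.43 with NU7441, against 0.31, 0.09 and -0.27 with DMSO. In both genes replicate 3 was thus the lowest of its group. Matn1 instead had replicate 3 highest in each group, at 0.25 in NU7441 3 and -0.05 in DMSO 3. The median deviation of the 10 members was between 0.04 and 0.07 on the NU7441 arrays and between -0.14 and -0.01 on the DMSO arrays.

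Osteoblast markers differed between the same arrays by more. Their median deviation was -0.05, 0.10 and 0.75 in NU7441 1 to 3, against -0.67, -0.52 and 0.23 in DMSO 1 to 3, so that replicate 3 was highest in each group. All 10 measured markers were higher with NU7441, with a median difference of 0.54, and 0 of 10 passed. Col1a1, Col1a2 and Dmp1 differed least, by 0.04 (SE 0.06), 0.04 (SE 0.06) and 0.14 (SE 0.61). Col1a1, at 13.46 to 13.53, and Col1a2, at 13.30 to 13.37, lay close to the arrays' maxima of 13.94 to 13.96. Whether this position limits their differences was not tested. Runx2, Spp1, Bglap2 and Bglap3 were also listed but had no probe set with a single symbol. The markers' median was 0.34 without NU7441 3, with 9 of 10 higher, and 0.87 without DMSO 3. With the combined setting of replicate block, intensity trend and robust prior, which was added after the data were examined, 6 of the 10 were called, all higher: Pth1r, Ibsp, Phex, Alpl, Ifitm5 and Sp7, at adjusted p values of 0.00262 to 0.0172 in limma. That setting called 39 genes as higher, 0.176% of all genes. In the main fit on group alone, Alpl, alkaline phosphatase, had the smallest p of these markers at 0.54 (SE 0.21). Next there were Pth1r, the parathyroid hormone receptor, at 0.81 (SE 0.36), Sp7, the factor osterix, at 0.53 (SE 0.24) and Bglap, osteocalcin, at 0.64 (SE 0.33). The part of this shift in the differences of the cartilage genes was not tested.

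**Figure D3:**
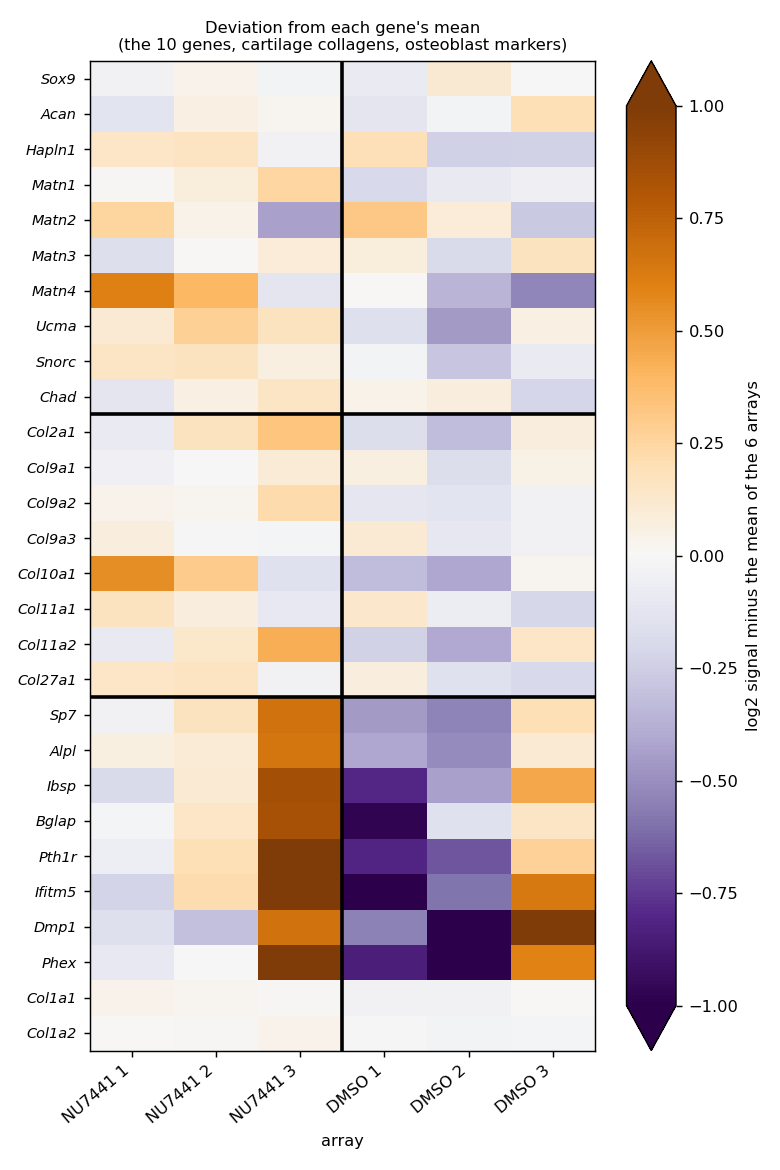
Log2 signal minus the gene's mean over the 6 arrays, for the 10 genes (top), the cartilage collagens (middle) and the osteoblast markers (bottom), with NU7441 arrays left of DMSO arrays; colours saturate at 1 and -1. Matn4 and Col10a1 are highest in NU7441 1, whereas Col2a1, Col11a2 and most osteoblast markers are high in replicate 3 of both groups.

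The collagens of cartilage lay on the NU7441 side throughout: 8 of 8 were higher, with a median difference of 0.18, and 0 passed, while 2 had an unadjusted p under 0.05. Col10a1, the collagen of hypertrophic chondrocytes, was at 10.99, 10.74 and 10.30 with NU7441, against 10.11, 10.03 and 10.47 with DMSO, a difference of 0.47 (SE 0.19, adjusted p = 0.726). DMSO 3 was above NU7441 3, so the groups overlapped. Col2a1, the main fibril collagen of cartilage, was at 8.29, 8.54 and 8.70 with NU7441, against 8.21, 8.05 and 8.45 with DMSO, a difference of 0.28 (SE 0.14, adjusted p = 0.768). Col9a2, a chain of the collagen on the fibril surface, differed by 0.19 (SE 0.08), with all NU7441 values above all DMSO values. Col27a1, a fibrillar collagen of cartilage, differed by 0.18 (SE 0.10). Without DMSO 2 the collagens higher with NU7441 numbered 6 of 8 and those at an unadjusted p under 0.05 numbered 0, and with each array centred on its median 8 of 8 were higher and again 0 had such a p.

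Of the other cartilage matrix proteins 0 of 17 passed, with 11 higher, 6 lower and a median difference of 0.06. That median was 0.00056 without DMSO 3, with 9 higher and 8 lower, 0.022 without NU7441 2, 0.026 without NU7441 1, 0.11 without NU7441 3 or DMSO 2, and 0.094 without DMSO 1. Prelp, a leucine-rich proteoglycan of cartilage and other connective tissue, had the smallest p at 0.27 (SE 0.07, adjusted p = 0.679). Cilp2 differed by 0.16 (SE 0.07), Cilp, the cartilage intermediate layer protein gene, by 0.23 (SE 0.11), Mia by 0.15 (SE 0.09) and Comp, the pentameric thrombospondin of cartilage, by 0.06 (SE 0.12). Prelp and Cilp2 had all NU7441 values above all DMSO values.

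Of the signals and receptors of the growth plate 0 of 11 measured passed, with 10 higher, 1 lower and a median of 0.12, which was 0.072 without DMSO 2. Fgfr3, the receptor that restrains chondrocyte proliferation, was at 8.42, 8.55 and 8.40 with NU7441, against 8.03, 8.03 and 7.94 with DMSO. All its NU7441 values were above all DMSO values, and the difference was 0.46 (SE 0.07, adjusted p = 0.598). Bmp6, a bone morphogenetic protein of hypertrophic cartilage, differed by 0.15 (SE 0.06), Ihh, the hedgehog ligand of prehypertrophic chondrocytes, by 0.19 (SE 0.12), and its target gene Gli1 by 0.29 (SE 0.19). With that combined setting of block, trend and robust prior, Fgfr3 was called higher (adjusted p = 0.0302 in limma).

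Among the proteases that cleave aggrecan and cartilage collagen and their inhibitor, 0 of 10 passed, 3 were higher and 7 lower, and the median difference was -0.06. Timp3, the inhibitor of aggrecanases, was at 10.86, 11.00 and 10.89 with NU7441, against 11.13, 11.71 and 11.48 with DMSO. All its NU7441 values were below all DMSO values, with a difference of -0.53 (SE 0.14, adjusted p = 0.679). Adamts9, a protease that cleaves aggrecan and versican, was at 9.14, 9.07 and 9.01 with NU7441, against 8.89, 8.79 and 8.61 with DMSO, a difference of 0.31 (SE 0.09, adjusted p = 0.697) with no overlap. Adamts5, the main aggrecanase of mouse cartilage, differed by -0.15 (SE 0.10) and Htra1 by -0.22 (SE 0.18). With the combined setting, Timp3 was called lower (adjusted p = 0.0417 in limma). The list's median was 0.0062 without NU7441 3, -0.014 without DMSO 2, -0.14 without NU7441 1 and -0.26 without DMSO 3. Of the 10 genes 5 were higher without NU7441 3 and 1 without NU7441 2.

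**Figure D4:**
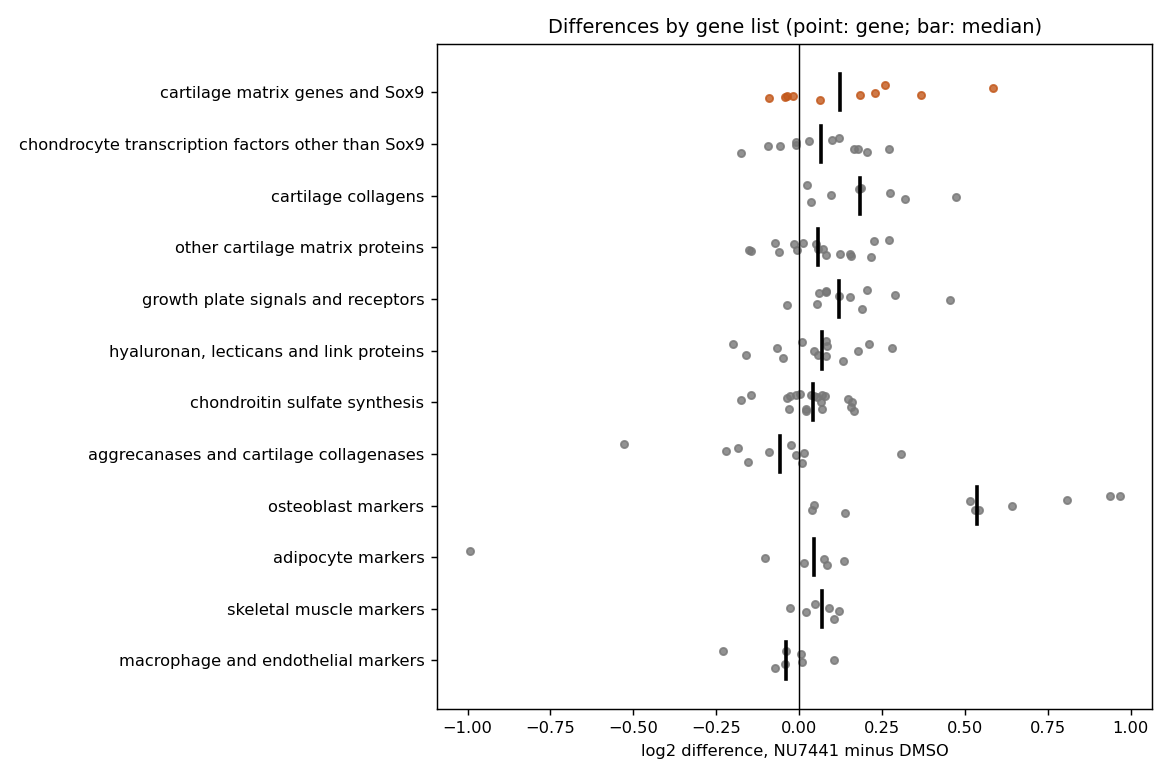
Log2 difference, NU7441 minus DMSO, of each gene (point) in the 10 cartilage matrix genes and Sox9 (orange) and in each other list (grey), with the median as a bar. The medians are 0.12 for the 10 genes, 0.18 for cartilage collagens and 0.54 for osteoblast markers. Fabp4, below the lower quartile on the NU7441 arrays, is the lowest point at -0.99.

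Of the markers of adipocytes, skeletal muscle, macrophages and endothelium 0 passed. The summed signal of the 6 adipocyte markers was between 8.13 and 8.36 on the log2 scale with NU7441 and between 8.33 and 8.39 with DMSO. Fabp4, the fatty acid carrier of adipocytes, differed by -0.99 (SE 0.19, adjusted p = 0.598) with no overlap, and was called lower with the combined setting (adjusted p = 0.0211 in limma). Its NU7441 values of 4.57, 5.04 and 5.00 lay below the lower quartile of each NU7441 array, so the size of its difference is uncertain. Plin1, Cidec and Lep had the next p values in the main fit, at 0.13 (SE 0.11), -0.10 (SE 0.11) and 0.08 (SE 0.14). The 6 skeletal muscle markers summed to between 9.28 and 9.37 with NU7441 and between 9.20 and 9.35 with DMSO, with 5 higher and 1 lower, Myh3 having the smallest p at 0.12 (SE 0.09). The 7 macrophage and endothelial markers summed to between 9.08 and 9.13 with NU7441 and between 9.08 and 9.26 with DMSO, with 3 higher and 4 lower, Pecam1 having the smallest p at 0.11 (SE 0.08). Of the macrophage and endothelial markers 5 were higher without NU7441 1 or DMSO 3, 1 without DMSO 1, and 2 without NU7441 3 or DMSO 2. Of the 19 markers of all these cell types, Myh3 and Ptprc were at or below each array's lower quartile on all 6 arrays, while 14 were above it on all 6, among them Cd68 at 7.45 to 8.13 and Acta1 at 7.24 to 7.58. Col1a1, the collagen of bone, lay between 13.46 and 13.53, close to the arrays' maxima of 13.94 to 13.96. Array medians were between 6.38 and 6.42, and arrays correlated with each other at between 0.989 and 0.993.

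The genes whose pattern over the 6 arrays was most like that of a member were taken as those with the smallest root mean square distance between values centred on each gene's mean, among 17600 genes. For Sox9, whose own SD over the 6 arrays was 0.07, these were Stard3 at 0.01, Wdr18 at 0.01 and Serpinh1 at 0.01. For Acan, with an SD of 0.12, they were Slc17a7 at 0.02, Sdr9c7 at 0.03 and Lhx3 at 0.03. For Matn4, with an SD of 0.43, they were Vmn1r214 at 0.12, Tspan18 at 0.14 and Zar1l at 0.16. Vmn1r214 and Zar1l, with mean signals of 3.82 and 4.68, lay below the lower quartile on every array, and Sdr9c7, with a mean of 5.02, lay near it. Tspan18 was at 8.87, 8.94 and 8.60 with NU7441, against 8.47, 8.17 and 8.11 with DMSO, a difference of 0.55. These distances describe the 6 arrays only.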

How the data were processed

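RNA of 3 NU7441 and 3 DMSO samples, grouped by the labels, was read on Affymetrix arrays. The authors deposited log2 signals, 1 for each probe set on each array; the scale was read from the values, while how background, summarisation and normalization were done is not given in the sources used here. RNA was column-purified, per the labels' protocols. Of 41345 probe sets, 23521 had 1 gene symbol in the platform annotation, 1814 several and 16010 none here; the one with the highest mean was kept per gene, with no filter on level and no further normalization.

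The test was limma 3.58.1 under R 4.3.3, with lmFit and eBayes on a model of group alone, two-sided, and p-values were adjusted by Benjamini-Hochberg over 22180 genes with a threshold of 0.05. The code was tested on simulated data. Members and lists were chosen with earlier results of these data known. From each list up to 4 genes with the smallest p were named, with Col2a1, Col10a1, Sox5, Sox6, Comp, Fgfr3 and Ihh. Col1a1, Col1a2, Dmp1, Ptprc, Cd68, Acta1, Zfp219, Wwp2, Ibsp, Phex, Ifitm5 and Csgalnact1 were named after their values were seen.

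Deviations from the group means correlated between 0.149 and 0.339 over genes for same-numbered samples, each above the 0.1 set for taking replicate numbers as pairs. No label states such pairs, and the block stayed an alternative. The main SEs, intervals and p-values therefore leave the pairs out. With the block the SE of Matn4 was 0.09 against 0.21, and that of Matn2 0.06 against 0.21. It was slightly larger with the block for Ucma, 0.134 against 0.131, and Chad, 0.115 against 0.107. Alternatives also covered array weights, averaged probe sets, dim-gene filters, median centring, quantile normalization, an intensity trend with a robust prior, and fits without each array in turn. Figures used matplotlib 3.10.9. The number of arrays limits the precision.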

Additional observations from a re-analysis of the deposited data

How the results depend on the processing

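In limma 0 genes and 0 of the 10 members passed, with 1506 genes and 4 members at an unadjusted p under 0.05, and 0 passed under all 14 alternatives that changed 1 choice, the replicate block included (0 genes and 0 members, smallest member adjusted p = 0.377, with 2078 genes and 4 members at an unadjusted p under 0.05). The block changed no call of a member. The block, trend and robust prior together, chosen after the data were examined, called 100 genes and 1 member, Matn4. Without NU7441 2, 0 members had an unadjusted p under 0.05, and over the alternatives that number was between 0 and 4. Members higher with NU7441 numbered 6 of 10. When only the brighter 50 percent of genes was kept, 2 of the 4 members left were higher, beside 41.9% of the genes kept. Leaving out 1 array gave 6 to 8 members higher. The members' median difference of 0.12 was 0.062 in the brighter 75 percent, where 9 members were left, and 0.09 to 0.15 with 1 array left out. Small differences turned sign with 1 array left out: Matn2 ranged from -0.246 to 0.104 (above 0 without NU7441 3 or DMSO 1), Matn3 from -0.149 to 0.0322 (above 0 without NU7441 1 or DMSO 3), Acan from -0.104 to 0.0542 (above 0 without NU7441 1 or DMSO 3), Chad from -0.0284, without DMSO 3, to 0.136, and Sox9 from -0.0627 to 0.0353, without DMSO 2. Sox9 was also at 0.0136 with quantile normalization and 0.00192 with array weights. For turns with all 6 arrays kept the cause was not tested. Matn1, Matn4, Hapln1, Ucma and Snorc were above 0 in every fit that held them; leaving out 1 array gave Matn4 0.43 to 0.79, Ucma 0.23 to 0.49, Snorc 0.18 to 0.31, Matn1 0.16 to 0.28 and Hapln1 0.11 to 0.33. Osteoblast markers at an unadjusted p under 0.05 were 1 without and 7 with the block, and hyaluronan genes 0 and 3.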
